A study of Mus musculus with 6 samples.

Results

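The genes that attach, align and separate chromosomes in mitosis were compared between mouse embryonic stem (ES) cells with a knockout (KO) of Alkbh1 and wild type (WT) ES cells. They were taken by gene symbol from the authors' deposited table of KO against WT, as the tested rows for centromere proteins, kinetochore subunits, spindle checkpoint and passenger proteins, mitotic kinases, separase with its guardians, the anaphase-promoting complex, condensin and the SMC subunits of cohesin. The rule found 68 genes of 14095 tested, and all 68 rows with a matching symbol had been tested.

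The targeted gene, Alkbh1, codes for a member of the AlkB enzymes, iron-dependent demethylases of DNA and RNA. Both genotypes were ES cells of a C57BL6 by CBA background at passage 5, grown without feeder cells, and the WT cells were of the line TT2. The series held 4 KO libraries, from 2 clones with 2 libraries each, and 2 WT libraries, all of messenger RNA. The labels do not say which part of Alkbh1 was removed, nor whether replicates were separate cultures, so the deposited q may rest on technical spread. The authors' deposited table gives FPKM (fragments per kilobase of transcript, scaled for depth), 1 value for KO and 1 for WT, with a log2 fold change and a q by the authors' test. Values of single libraries were not analysed here. Levels therefore come without an SD, the KO clones could not be set side by side, genotype and clone cannot be told apart, and the depth is unknown. Alkbh1 itself had 18.1 FPKM in KO and 33.9 FPKM in WT in the authors' deposited table and was not called (log2 fold change -0.90, q = 0.0943). The table gives its region jointly for 5 genes, and since the removed part is not known, that value is no check of the labels.

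A kinetochore is built on each centromere in layers. Nucleosomes with the histone variant CENP-A carry a constitutive centromere network, which carries the KMN network that binds microtubules, and an outer fibrous corona forms before attachment. Unattached kinetochores send the spindle checkpoint signal that holds back the anaphase-promoting complex and its activator Cdc20. Once released, that ubiquitin ligase marks securin for destruction, separase is freed and cuts cohesin, and the chromosomes, compacted by condensin, part. ES cells divide fast and spend much of their time outside the first gap phase, and transcripts of many of these genes peak around mitosis. In RNA from whole cultures, fewer cells near mitosis and less RNA per cell cannot be told apart.

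On the deposited scale nearly all mitotic genes that passed the authors' test were lower in KO, by less than 2-fold each, and about as many did not pass. Of the 68 genes, 32 were called lower and 3 higher at q under 0.05, and 33 were not called. Across all tested genes, 28.4% were called lower and 22.4% higher in the authors' deposited table. At q under 0.01 the counts were 30 lower and 3 higher, against 22.6% and 17.2% of all tested genes. No mitotic gene reached a 2-fold difference, which 5.36% of tested genes did among the lower calls and 9.04% among the higher. The called genes with the lowest log2 fold changes were Cenpp (-0.97), Pttg1 (-0.97) and Cenpk (-0.90), and the 3 higher ones were Casc5 (0.75), Espl1 (0.66) and Cenpf (0.45), per the authors' deposited table. The median log2 fold change of the 68 genes was -0.33, against -0.06 over all tested genes, but it turned to 0.32 when both conditions were given equal FPKM totals over tested genes and to 0.03 when centred on genes at or above the median level. With equal totals the called genes split into 15 below and 20 above 0. The direction of the group as a whole thus depends on the scale, while differences between its genes do not depend on any common scaling.

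Most of the 68 genes were well expressed, and on the deposited scale abundant genes tended to be lower in KO. Mean levels ran from 5.85 to 268 FPKM, and 66 of the 68 lay at or above the median tested level of 7.57 FPKM. Among the 7371 tested genes in that range, 42.1% were called lower and 10.8% higher, with a median log2 fold change of -0.30. The mitotic genes, at 47.1% lower, were near that share, and at 4.41% higher they were below it. Set against the median of its own decile by level, 39 of the 68 genes lay above and 29 below, with a median difference of 0.06. The median of -0.33 was thus close to the -0.30 of genes expressed alike, and the difference was not tested.

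**Figure D1:**
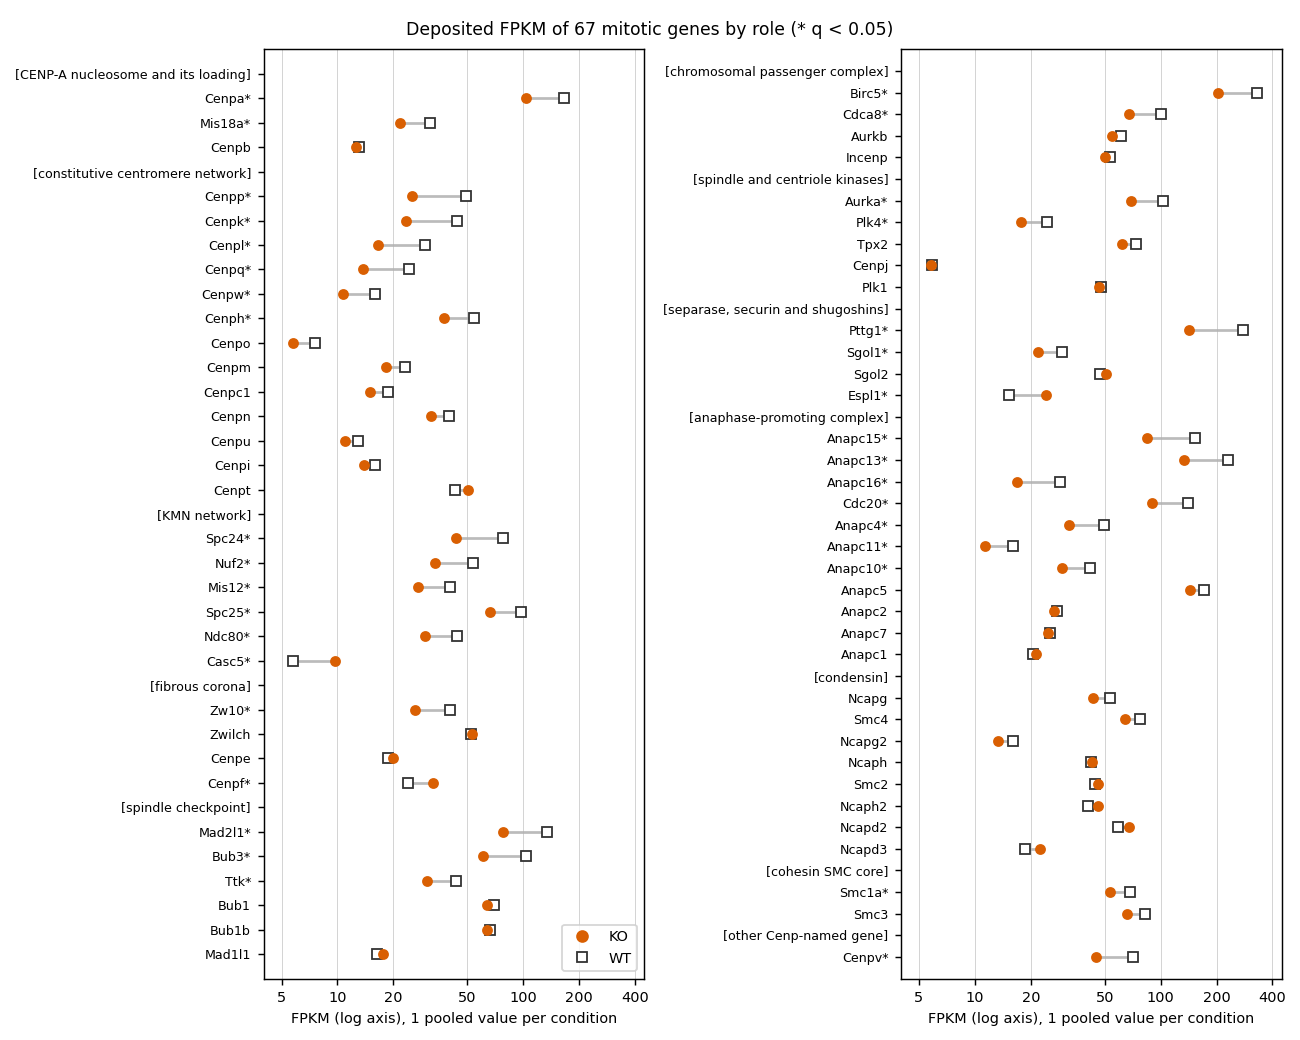
FPKM of 67 of the 68 mitotic genes in KO (filled circles) and WT (open squares) from the authors' deposited table, on a log axis, grouped by role, with an asterisk at q under 0.05. The filled circle lies left of the square for 53 genes and right of it for 14, on the deposited scale, and no pair of values is 2-fold apart.

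Among the 68 genes, fold change followed the length of the coding sequence. Among the 23 genes with less than 1000 coding bases, 21 were called lower and none higher, and the other 2, Cenpm (-0.34) and Cenpo (-0.39), also lay below 0 on the deposited scale. Their median log2 fold change was -0.68, and -0.03 with equal totals. Among the 6 genes with at least 4500 coding bases, none was called lower and 3 were called higher, with a median of 0.36 on the deposited scale, and the remaining 3, Cenpe, Ncapd3 and Anapc1, lay between 0.04 and 0.27. The groups did not overlap in fold change: the highest short gene stood at -0.34 and the lowest long gene at 0.04. Among other tested genes in the same range of level, 2059 of 2448 such short genes lay below 0. Of such long genes there, 232 of 284 lay above 0. Genes of 1000 to 2000 coding bases had a median of -0.24 (15 genes, 6 lower), those of 2000 to 3000 also -0.24 (13 genes, 4 lower), and those of 3000 to 4500 a median of -0.13 (11 genes, 1 lower), and none of these was called higher.

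Other tested genes showed a similar order with length. In the mitotic genes' range of level, the other genes of under 1000 coding bases had a median log2 fold change of -0.54, with 60.7% called lower and 4.66% higher. Of the mitotic genes in that class, 91.3% were called lower and none higher, and the difference in shares was not tested. Other genes in that range with at least 4500 coding bases had a median of 0.42, with 7 of 284 called lower and 153 higher. In the 3 classes between, the shares called lower were near those of other genes in that range of level: 40.0% of the mitotic genes against 41.5% of others at 1000 to 2000 bases, 30.8% against 28.9% at 2000 to 3000, and 9.09% against 12.1% at 3000 to 4500. The shares called higher among those other genes were 8.20%, 14.7% and 27.0% in the same order of length. From the shortest class to the longest, the median of the mitotic genes minus that of the others was -0.14, 0.05, -0.14, -0.24 and -0.06. The widest gap in medians was thus at 3000 to 4500 bases. There the mitotic genes had a median of -0.13 and the others 0.11 on the deposited scale. None of these gaps was tested. Across the 68 genes, Spearman's rho between fold change and coding length was 0.73, and it was 0.37 across the 13144 tested genes with a coding length. With the longest annotated transcript in place of the coding sequence rho was 0.46 for the mitotic genes and 0.30 for 13929 tested genes. These are descriptions across genes that share the same libraries, and coding length was chosen after the values were seen. Against the mean FPKM, rho of fold change was -0.32 for the mitotic genes and -0.55 for 14039 tested genes, so over all tested genes it was larger in size for level than for coding length, and among the mitotic genes smaller. Coding length was only weakly related to level among the 68 genes (rho -0.21). The part that coding length has in the differences between genes was not tested.

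**Figure D2:**
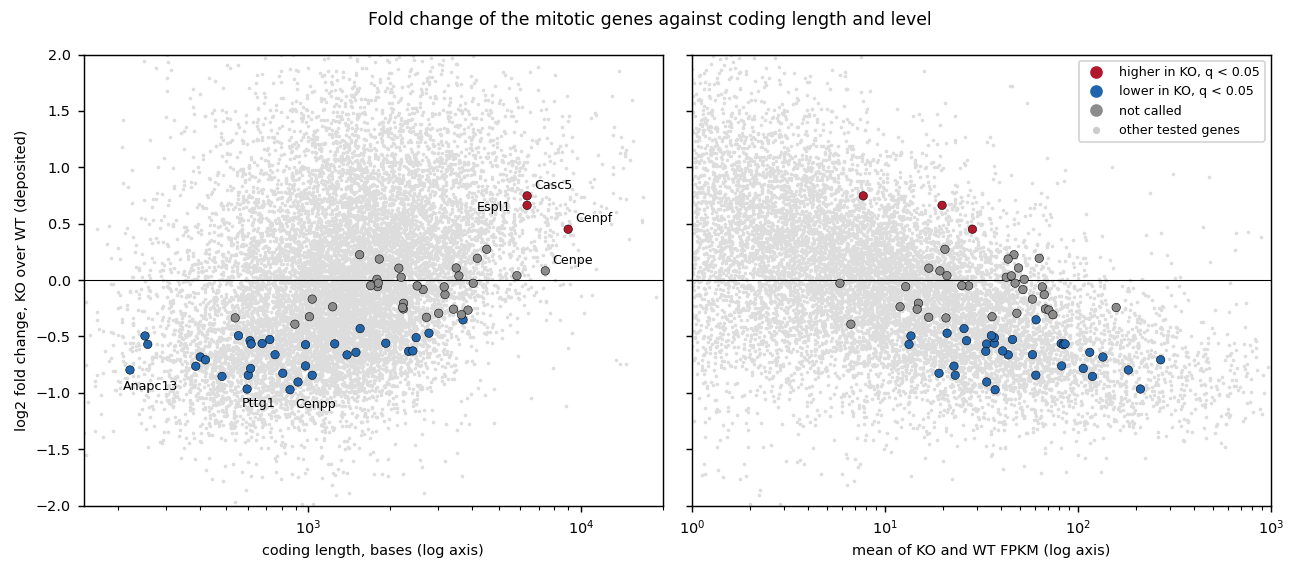
Deposited log2 fold change of KO over WT against coding length (left) and against the mean FPKM of both conditions (right), both on log axes, for 67 of the 68 mitotic genes (coloured by call) and other tested genes (grey, those beyond the axis limits not drawn). The 23 genes under 1000 coding bases all lie below 0 and the 6 genes of at least 4500 bases above 0 on the deposited scale. Of other tested genes in the same range of level, 2059 of 2448 short ones lie below 0 and 232 of 284 long ones above 0. With equal totals every point would move up by 0.65.

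Promoters of the mitotic genes were read next, since many genes that peak around mitosis share a cell cycle genes homology region (CHR), the element contacted by the MuvB complex through Lin54, and CCAAT boxes bound by NF-Y. Windows of 300 bases, 250 before and 50 after the start, came from RefSeq (GRCm38.p6) and were found for 61 of the 68 genes. The words searched on both strands were TTTGAA and TTCGAA for the CHR and CCAAT for the box. At least 1 CHR word was found in 29 of the 61 mitotic genes (47.5%), against 16.3% of 11013 tested genes with a window and 19.2% of all 32851 windows in the table. CCAAT was found in 33 of the 61 (54.1%), against 43.1% of those tested genes and 37.4% of all windows. Both were found in 20 of the 61 mitotic genes (32.8%) and in 8.16% of the tested genes. The CHR words did not separate the calls: they were found in 14 of 31 genes called lower, in 12 of 27 not called, and in all 3 called higher.

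The windows of those 3 higher genes follow, then 2 genes called lower and 1 condensin gene that was not called, to show that a CHR word stands in promoters of genes with each kind of call on the deposited scale. Casc5 has no CCAAT word in its window. Capitals mark the CHR and CCAAT words on either strand (TTCAAA and ATTGG are their reverse complements), and Casc5 is named Knl1 in RefSeq. Positions are on GRCm38.p6.
Casc5 (chr2:119046869-119047168, plus strand): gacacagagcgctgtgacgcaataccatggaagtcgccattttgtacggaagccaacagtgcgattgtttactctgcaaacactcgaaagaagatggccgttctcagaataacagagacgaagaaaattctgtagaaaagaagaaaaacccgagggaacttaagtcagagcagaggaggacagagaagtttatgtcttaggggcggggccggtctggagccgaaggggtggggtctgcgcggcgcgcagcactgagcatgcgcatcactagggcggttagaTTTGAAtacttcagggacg
Cenpf (chr1:189688037-189688336, minus strand): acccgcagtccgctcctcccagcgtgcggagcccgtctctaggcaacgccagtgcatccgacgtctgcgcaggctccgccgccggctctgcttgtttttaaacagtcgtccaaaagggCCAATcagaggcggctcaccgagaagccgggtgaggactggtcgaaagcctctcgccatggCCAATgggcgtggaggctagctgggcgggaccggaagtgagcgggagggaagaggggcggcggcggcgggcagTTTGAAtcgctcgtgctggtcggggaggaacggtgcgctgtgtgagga
Espl1 (chr15:102296043-102296342, plus strand): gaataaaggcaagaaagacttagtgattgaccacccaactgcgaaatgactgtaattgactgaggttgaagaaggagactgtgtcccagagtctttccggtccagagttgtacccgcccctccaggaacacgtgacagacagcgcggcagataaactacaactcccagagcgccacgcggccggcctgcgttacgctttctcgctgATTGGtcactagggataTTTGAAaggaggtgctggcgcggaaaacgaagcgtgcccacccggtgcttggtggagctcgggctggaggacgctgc
Cdc20 (chr4:118437294-118437593, minus strand): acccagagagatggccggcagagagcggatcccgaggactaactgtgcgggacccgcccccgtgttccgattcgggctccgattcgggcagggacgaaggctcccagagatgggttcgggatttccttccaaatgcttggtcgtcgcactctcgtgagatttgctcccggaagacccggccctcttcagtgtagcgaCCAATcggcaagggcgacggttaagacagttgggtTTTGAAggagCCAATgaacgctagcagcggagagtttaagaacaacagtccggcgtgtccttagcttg
Cenpa (chr5:30666636-30666935, plus strand): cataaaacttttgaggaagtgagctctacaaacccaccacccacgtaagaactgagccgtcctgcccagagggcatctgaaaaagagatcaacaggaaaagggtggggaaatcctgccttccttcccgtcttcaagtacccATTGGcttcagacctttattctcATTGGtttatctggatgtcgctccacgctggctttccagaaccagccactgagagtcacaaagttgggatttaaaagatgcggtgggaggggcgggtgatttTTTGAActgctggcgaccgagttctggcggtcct
Smc2 (chr4:52438971-52439270, plus strand): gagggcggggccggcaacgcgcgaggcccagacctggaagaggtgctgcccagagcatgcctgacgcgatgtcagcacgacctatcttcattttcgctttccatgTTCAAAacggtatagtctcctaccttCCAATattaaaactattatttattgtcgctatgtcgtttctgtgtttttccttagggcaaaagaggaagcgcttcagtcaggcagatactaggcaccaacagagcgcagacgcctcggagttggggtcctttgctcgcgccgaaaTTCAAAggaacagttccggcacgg

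In Espl1 a CHR word began 27 bases before the start and a CCAAT box, on the other strand, 44 bases before it. In Cdc20 the CHR word began 18 bases before the start, between CCAAT boxes that began 53 and 8 bases before it. Cenpa had CCAAT boxes beginning 109 and 86 bases before the start and a CHR word 16 bases after the first transcribed base. Cenpf had CCAAT boxes 132 and 71 bases before the start and a CHR word 2 bases after the first transcribed base. A match of letters is not a site of binding, and no measurement of binding was made here.

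At the centromere itself, short genes for CENP-A and its loading were lower on the deposited scale, while with equal totals Cenpa would stand at -0.03 and Mis18a at 0.12. Cenpa, the centromeric histone H3 variant, had 103 FPKM in KO and 166 FPKM in WT in the authors' deposited table (log2 fold change -0.68, q = 0.000206). Mis18a, which licenses the loading of new CENP-A, had 21.6 FPKM in KO and 31.4 FPKM in WT there (-0.54, q = 0.00412). Cenpb, which binds a DNA motif of centromeric repeats, had 12.6 FPKM in KO and 13.1 FPKM in WT in the authors' deposited table (-0.06, q = 0.799). A q above the threshold does not show equal levels, and the table holds no error from which an interval could be had.

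In the constitutive centromere network 6 of 13 genes were called lower and none higher, with a median log2 fold change of -0.39, or 0.26 with equal totals. The 46.2% called lower stand beside 42.1% of tested genes in the mitotic genes' range of level. The lowest was Cenpp (mm9 chromosome 13, 49559427 to 49748100), a subunit of the CENP-O group, at 25.1 FPKM in KO and 49.3 FPKM in WT in the authors' deposited table (1.96-fold lower in KO, q = 0.000206). Its region is given jointly with Aspn, Ecm2, Ogn and Omd, so its reads are uncertain. Cenpk, of the CENP-H group, had 23.5 FPKM in KO and 43.9 FPKM in WT in the authors' deposited table (-0.90, q = 0.00191), in a region joined with Ppwd1. Cenpl, which forms with Cenpn a unit that contacts the CENP-A nucleosome, had 16.5 FPKM in KO and 29.7 FPKM in WT in the authors' deposited table (-0.84, q = 0.000206). Cenpq, Cenpw and Cenph were called lower as well, at -0.83, -0.57 and -0.53 in the authors' deposited table. Cenpc1, which bridges CENP-A to the outer kinetochore, had 14.9 FPKM in KO and 18.8 FPKM in WT in the authors' deposited table and was not called (-0.33, q = 0.0719). Cenpm, Cenpn, Cenpo, Cenpu and Cenpi were not called, between -0.39 and -0.21. Cenpt, which recruits the KMN network along a second route, stood at 0.23 (q = 0.226) in the authors' deposited table, with 50.2 FPKM in KO and 43.0 FPKM in WT. It was the one member of this network above 0 on the deposited scale. Against the median of their level decile, 3 of the 13 genes lay above and 10 below (median difference -0.18).

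In the KMN network all 6 genes were called, 5 lower and 1 higher, with a median of -0.56 on the deposited scale and 0.09 with equal totals. The 83.3% called lower stand beside 42.1% of tested genes in the mitotic genes' range of level, and the difference was not tested. Of the lower genes, Spc24, Spc25 and Mis12 have under 1000 coding bases, where 60.7% of other genes in that range were called lower. Against the median of their level decile, 2 of the 6 genes lay above and 4 below (median difference -0.10). The 4 subunits of the Ndc80 complex, which grips the microtubule, were all lower in KO. Spc24 had 43.3 FPKM in KO and 77.7 FPKM in WT, per the authors' deposited table (-0.84, q = 0.000206). Nuf2 had 33.7 FPKM in KO and 53.4 FPKM in WT, per the authors' deposited table (-0.66, q = 0.000206). Spc25 and Ndc80 both stood at -0.56, and Mis12, of the linker complex that ties the network to the centromere, at -0.57, per the authors' deposited table. The region of Mis12 is joined with that of Derl2. Casc5 (mm9 chromosome 2, 118872854 to 118929857), the large scaffold that carries the checkpoint kinase docking repeats, went the other way, with 9.69 FPKM in KO and 5.77 FPKM in WT, per the authors' deposited table (1.68-fold higher in KO, q = 0.000206). Per length, the level of Spc24 was 4.47 times that of Casc5 in KO and 13.5 times in WT, a log2 change in ratio of -1.59 that no common scaling alters. Spc24 has 603 coding bases and Casc5 6357, and the part of length in this change was not tested.

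The fibrous corona genes were split, with 1 lower, 1 higher and 2 not called (median log2 fold change 0.04, and 0.70 with equal totals). Zw10, of the complex that brings dynein to kinetochores, had 26.1 FPKM in KO and 40.5 FPKM in WT in the authors' deposited table (-0.63, q = 0.000206). Its partner Zwilch had 52.8 FPKM in KO and 52.5 FPKM in WT in the authors' deposited table (0.01, q = 0.973), in a region joined with Lctl. Cenpf, a large corona protein, had 32.8 FPKM in KO and 24.00 FPKM in WT in the authors' deposited table (0.45, q = 0.00824). The kinesin gene Cenpe, which moves chromosomes to the spindle equator, had 19.8 FPKM in KO and 18.7 FPKM in WT in the authors' deposited table (0.08, q = 0.680). The remaining member of the Zw10 complex, Kntc1, was outside the rule and had 22.7 FPKM in KO and 13.5 FPKM in WT in the authors' deposited table (0.75, q = 0.000206).

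Of the spindle checkpoint genes, 3 of 6 were called lower and none higher (median -0.32, and 0.33 with equal totals). That share of 50% stands beside 42.1% of tested genes in the range of level of the 68. Mad2l1, the inhibitor that binds Cdc20, had 78.3 FPKM in KO and 135 FPKM in WT, according to the authors' deposited table (-0.78, q = 0.000206). Bub3, the adaptor that docks Bub1 on Casc5, had 61.0 FPKM in KO and 103 FPKM in WT, according to the authors' deposited table (-0.76, q = 0.000206). Ttk, the kinase that starts the signal, had 30.4 FPKM in KO and 43.4 FPKM in WT, according to the authors' deposited table (-0.51, q = 0.00387). The kinase gene Bub1 (-0.13), its relative Bub1b (-0.06) and the Mad2l1 partner Mad1l1 (0.11) were not called, with q from 0.504 to 0.764 in the authors' deposited table. Bub1 and Bub1b stood at nearly the same level, 63.9 and 64.0 FPKM in KO and 69.9 and 66.7 FPKM in WT, per the authors' deposited table. The ratio of Mad2l1 to Mad1l1 was 4.47 in KO and 8.29 in WT, and that of Bub3 to Bub1 was 0.954 in KO and 1.48 in WT. Mad2l1 and Bub3 have 615 and 978 coding bases, and Mad1l1 and Bub1 have 2151 and 3177. Mad2l1 and Bub3 lay 0.06 and 0.04 below the median of their level decile, and Mad1l1 and Bub1 0.26 and 0.38 above that of theirs. The part of length and level in these ratios was not tested.

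The chromosomal passenger complex, which corrects faulty attachments, had 2 of 4 genes called lower (median -0.37, and 0.28 with equal totals). That share of 50% stands beside 42.1% of tested genes in the range of level of the 68. Birc5, or survivin, was the most abundant of the 68 genes, with 204 FPKM in KO and 332 FPKM in WT in the authors' deposited table (-0.71, q = 0.000206). Cdca8, or borealin, had 67.6 FPKM in KO and 101 FPKM in WT in the authors' deposited table (-0.57, q = 0.00056). The kinase gene Aurkb had 54.7 FPKM in KO and 61.5 FPKM in WT in the authors' deposited table (-0.17, q = 0.368). The scaffold gene Incenp had 50.3 FPKM in KO and 53.3 FPKM in WT in the authors' deposited table (-0.08, q = 0.679). The targeting subunits Birc5 and Cdca8 were thus called lower, while the kinase and the scaffold were not, and whether the pairs differ was not tested. The pairs also differ in length and level. Birc5 and Cdca8 have 420 and 978 coding bases and lay 0.01 and 0.15 above the median of their level decile, the 10th. Aurkb and Incenp have 1035 and 2640 and lay 0.34 and 0.43 above that of theirs, the 9th.

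The group of spindle and centriole kinases also took in Tpx2 and Cenpj. Of its genes, Aurka and Plk4 were called lower and 3 of 5 were not called (median -0.26, and 0.40 with equal totals). The 40% called lower stand beside 42.1% of tested genes in the mitotic genes' range of level. Aurka, the centrosomal Aurora kinase, had 69.2 FPKM in KO and 102 FPKM in WT in the authors' deposited table (-0.57, q = 0.00163). Tpx2, which activates Aurka on microtubules, had 61.8 FPKM in KO and 73.8 FPKM in WT in the authors' deposited table (-0.26, q = 0.150). Plk4, the master kinase of centriole duplication, had 17.6 FPKM in KO and 24.4 FPKM in WT in the authors' deposited table (-0.47, q = 0.00734). Plk1, which acts from mitotic entry to exit, had 46.8 FPKM in KO and 47.7 FPKM in WT in the authors' deposited table (-0.03, q = 0.897). Cenpj, a centriole protein despite its name, had 5.79 FPKM in KO and 5.91 FPKM in WT in the authors' deposited table (-0.03, q = 0.907).

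Securin and separase moved apart. Pttg1 (mm9 chromosome 11, 43233749 to 43239750), which encodes securin, had 143 FPKM in KO and 278 FPKM in WT in the authors' deposited table (1.95-fold lower in KO, q = 0.000206). Espl1 (mm9 chromosome 15, 102126723 to 102154787), which encodes separase, had 24.2 FPKM in KO and 15.3 FPKM in WT in the authors' deposited table (1.58-fold higher in KO, q = 0.000206). The ratio of securin to separase transcript was 5.88 in KO and 18.2 in WT. That log2 change of -1.63 was the largest of 12 pairs of members set against each other, all chosen after the values were seen. No common scaling alters it. Pttg1 has 597 coding bases and Espl1 6354. Other genes in the range of level had a median of -0.54 under 1000 coding bases and of 0.42 at 4500 or more. How much of the change in ratio goes with length was not tested. With equal totals Pttg1 would stand at -0.31 and Espl1 at 1.32. Of the shugoshin genes, which shield cohesin at centromeres, Sgol1 had 21.9 FPKM in KO and 29.5 FPKM in WT in the authors' deposited table (-0.43, q = 0.0133). Sgol2 had 51.0 FPKM in KO and 47.4 FPKM in WT in the authors' deposited table (0.11, q = 0.586). Over these 4 genes the median was -0.16, and 0.49 with equal totals.

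In the anaphase-promoting complex, 7 of 11 genes were called lower and none higher (median -0.50, and 0.16 with equal totals). The 63.6% called lower stand beside 42.1% of tested genes in the mitotic genes' range of level, and the difference was not tested. Against the median of their level decile, 6 of the 11 genes lay above and 5 below (median difference 0.02). The small subunits of the complex led. Anapc15, which helps to turn the checkpoint off, had 84.7 FPKM in KO and 153 FPKM in WT in the authors' deposited table (-0.85, q = 0.000206). Anapc13 had 133 FPKM in KO and 232 FPKM in WT in the authors' deposited table (-0.80, q = 0.000206), and Anapc16 16.9 FPKM in KO and 28.7 FPKM in WT (-0.76, q = 0.00757), in a region joined with Ascc1. Cdc20, the activator that the checkpoint inhibits, had 89.9 FPKM in KO and 140.2 FPKM in WT in the authors' deposited table (-0.64, q = 0.000206), in a region joined with Elovl1. Anapc4 (-0.63), the RING subunit gene Anapc11 (-0.50) and the substrate receptor gene Anapc10 (-0.49) were also called lower in the authors' deposited table. The scaffold Anapc1 (0.04), the cullin-like Anapc2 (-0.05), the repeat subunit Anapc7 (-0.05) and Anapc5 (-0.24) were not called, with q from 0.175 to 0.848 in the authors' deposited table. The uncalled genes each had 1695 to 5832 coding bases, and 5 of the 7 called ones had under 1000. Of other genes under 1000 coding bases in the mitotic genes' range of level, 60.7% were called lower.

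Condensin was the group in which no gene was called. Over all tested genes, 6932 of 14095 were not called. Among other genes of 3000 to 4500 coding bases in the range of level of the 68, 313 of 514 were not. All 8 genes lay between -0.29 and 0.27 on the deposited scale (median 0.03, and 0.68 with equal totals), none had an unadjusted p under 0.05 in the authors' deposited table, and none was called from a normal p of the deposited statistic, a reading that called 12 of the 68 genes lower and 2 higher, and 14.0% and 10.9% of all tested genes. Smc2 had 45.8 FPKM in KO and 44.6 FPKM in WT in the authors' deposited table, and Smc4, its ATPase partner in both condensins, 64.2 FPKM in KO and 77.2 FPKM in WT. Of the condensin I subunits, Ncapd2 stood at 0.19, Ncaph at 0.03 and Ncapg at -0.29 in the authors' deposited table. Of the condensin II subunits, Ncapd3 stood at 0.27, Ncaph2 at 0.19 and Ncapg2 at -0.26 in the authors' deposited table. In both complexes the gene of the D subunit was above 0 and that of the G subunit below 0 on the deposited scale, without a call in either. Against the median of genes in the same decile by level, 7 of the 8 lay above and Ncapg2 lay below (difference of -0.11), with a median difference of 0.54 over all 8. The condensin genes are long, with 1824 to 4518 coding bases. Of other genes of 3000 to 4500 coding bases in that range of level, 432 lay above their decile median and 81 below (median difference 0.32). The regions of Smc4, Ncapd2, Ncapg and Ncaph2 are joined with those of other genes.

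The SMC pair of cohesin, which the rule also took, was at -0.35 for Smc1a (q = 0.04) and -0.31 for Smc3 (q = 0.0803) in the authors' deposited table. Smc1a, which is X-linked, had 53.3 FPKM in KO and 68.1 FPKM in WT there, and Smc3 66.3 FPKM in KO and 82.0 FPKM in WT. Both subunits lie in a ring with each other, and their values were close. Smc1a had the weakest statistic of any called member (-1.41, with a deposited p of 0.0196). Cenpv, whose product is also linked to microtubules outside the centromere, had 45.02 FPKM in KO and 71.2 FPKM in WT in the authors' deposited table (-0.66, q = 0.000206).

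**Figure D3:**
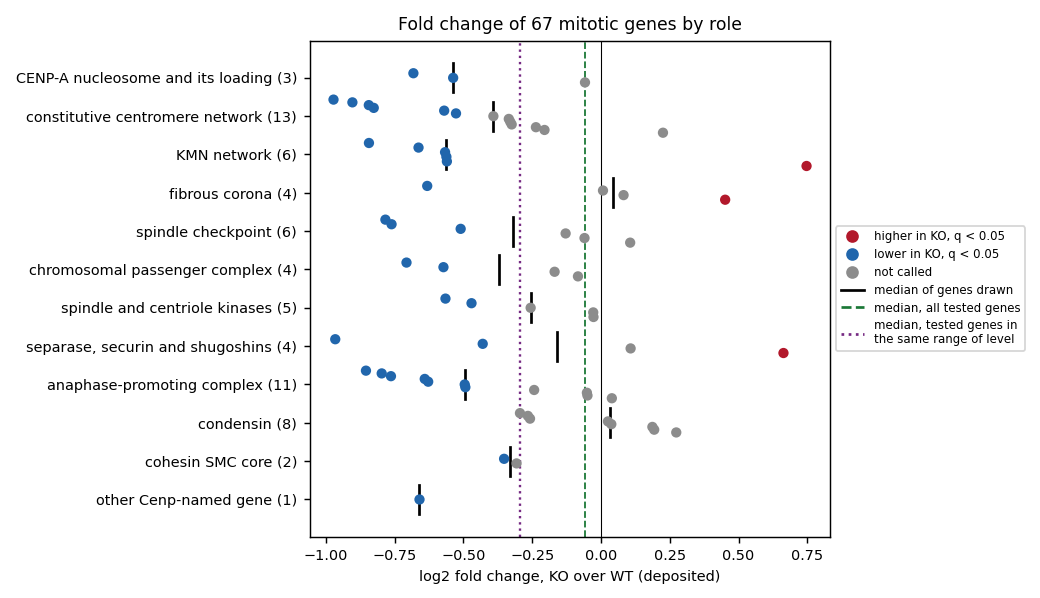
Deposited log2 fold change of KO over WT for 67 of the 68 genes, by role with the number drawn in brackets, coloured by call at q under 0.05, with the median of the genes drawn in each group (black), the median of all tested genes (dashed, -0.06) and that of tested genes in the same range of level (dotted, -0.30). All 8 condensin genes are grey, and single red points stand in the KMN, corona and separase groups. With equal totals every point and line would move up by 0.65.

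Other genes of mitosis were read from a list written for this purpose by role, of which 73 of 74 symbols were tested. Of these, 25 were called lower (34.2%) and 8 higher (10.96%), with a median log2 fold change of -0.18, and 0.47 with equal totals. These shares stand beside the 28.4% lower and 22.4% higher of all tested genes, and the 42.1% and 10.8% of tested genes in the range of level of the 68. Among 16 further centromere and kinetochore genes, 9 were lower and 1, Kntc1, was higher. Ska1, which helps Ndc80 to follow microtubule ends, had 12.7 FPKM in KO and 25.7 FPKM in WT in the authors' deposited table (-1.02, q = 0.000206), and Apitd1, a histone-fold protein gene of the centromere network, stood at -0.77. Among 8 further genes of the anaphase-promoting complex 5 were lower and none higher. Cdc26 had 35.2 FPKM in KO and 87.9 FPKM in WT in the authors' deposited table (-1.32, q = 0.000206), lower than any of the 68 genes, and the inhibitor gene Fbxo5 had 57.0 FPKM in KO and 106 FPKM in WT (-0.89). Cdc26 has 255 coding bases.

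Among 12 genes of cohesin and its regulators, 3 were lower and 2 higher. Cdca5, or sororin, and the core subunit gene Stag2 stood at -0.75 and -0.72 in the authors' deposited table. Pds5a, a regulator of the hold of cohesin on chromatin, had 34.8 FPKM in KO and 22.5 FPKM in WT in the authors' deposited table (0.63, q = 0.00039), and the loader gene Nipbl stood at 0.59. Among 18 genes of mitotic entry and chromosome structure, 6 were lower, such as the cyclin genes Ccnb2 and Ccna2 (-0.68 and -0.67 in the authors' deposited table), and 1 was higher, the phosphatase gene Cdc25b (0.66). The proliferation markers Top2a and Mki67, added after their values were seen, were not called, at 0.02 and 0.12 in the authors' deposited table. Both are long, with 4584 and 9531 coding bases. Other genes of at least 4500 coding bases in the mitotic genes' range of level had a median of 0.42, and Top2a lay above that range. Whether proliferation differed was not tested. Among 19 genes of spindle assembly and centriole duplication, 2 were lower, Tacc3 and Nusap1 (-0.52 and -0.46), and 4 were higher in the authors' deposited table. Of those 4, Numa1, which anchors spindle poles, had 15.2 FPKM in KO and 9.10 FPKM in WT (0.74) and the centriole gene Stil 5.14 FPKM in KO and 3.29 FPKM in WT (0.64) in the authors' deposited table. With equal totals the median of each of these 5 lists would lie above 0, from 0.05 to 0.75.

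**Figure D4:**
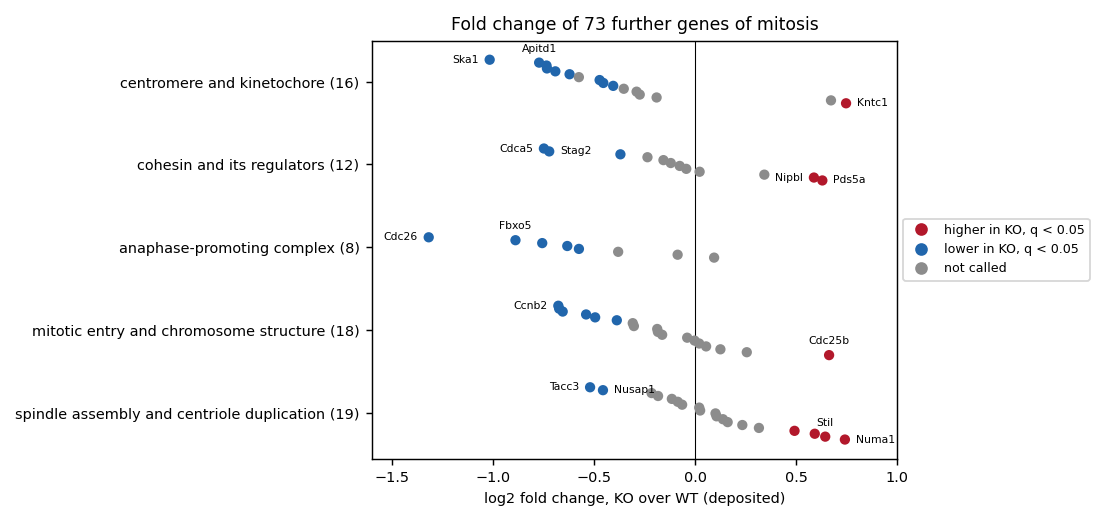
Deposited log2 fold change of KO over WT for 73 further genes of mitosis in 5 lists, coloured by call at q under 0.05, with names for called genes at either end. The anaphase-promoting complex list has 5 lower points and none higher, and the spindle and centriole list has 2 lower and 4 higher on the deposited scale; with equal totals every point would move up by 0.65.

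The 10 ES cell markers were all present, at 39.1 to 2099 FPKM in KO and 39.5 to 3753 FPKM in WT in the authors' deposited table. They summed to 4655 FPKM in KO and 7511 FPKM in WT, and 9 of the 10 were tested. The largest part of both sums was Dppa5a, at 2099 FPKM in KO and 3753 FPKM in WT. Esrrb (0.17) and Klf4 (-0.01) were not called, and the other tested ES cell markers were called lower on the deposited scale. The 10 fibroblast markers, which would mark feeder cells, summed to 12.6 FPKM in KO and 7.68 FPKM in WT, with 3 of them listed at 0 in WT and none in KO. Most of both sums was Thy1, at 9.39 FPKM in KO and 6.43 FPKM in WT. Thy1 (0.55), Col1a1 (1.04), Pdgfrb (1.49) and Fbn1 (1.29) were called higher in KO, and S100a4 (1.67, q = 0.0849) was not. Col1a1, Pdgfrb and Fbn1 lay in the lowest decile by level, where tested genes had a median log2 fold change of 0.69. Whether the content of such cells differed was not tested. The 5 endoderm markers summed to 1.02 FPKM in KO and 0.773 FPKM in WT in the authors' deposited table. Added up over tested genes, FPKM came to 624340 in KO and 981679 in WT, so KO had 63.6% of the WT sum. How far this difference is one of scaling was not tested.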

How the data were processed

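Messenger RNA libraries were made with a strand-specific kit from column-extracted total RNA, per the labels' protocols. Reads were aligned with TopHat2 to mm9, per the submitters' processing notes, and neither the annotation nor the use of strand in counting is given in the sources used here. Libraries of each condition were combined by the authors into 1 FPKM value per gene, per the file headers, deposited with their log2 fold change, test statistic (a score), p-value and q-value. Adjusting the deposited p-value by Benjamini-Hochberg over tested genes gave the deposited q-value to within 5.18e-07. The smallest deposited p-value, 5e-05, is shared by 18 of the 68 genes, which cannot be ranked by it.

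A gene was called at a deposited q under 0.05, in the direction of its deposited fold change. In 1 alternative, a two-sided normal p of the deposited statistic was adjusted over all tested genes. Genes, roles and lists were chosen with earlier results of these data known. Genes are named by role, all of them in groups of up to 6 (except 1 gene that is not reported singly here nor drawn, but counts among the 68) and otherwise the 3 lowest, the 3 highest and those with a stated role; of the further genes, the 2 called members per direction and list with the largest change, Top2a and Mki67 being added after their values were seen. Level deciles use the mean of KO and WT FPKM; 56 tested genes listed at 0 in 1 condition were left out of medians. Coding length is the longest coding sequence in GENCODE M21, found for all 68 genes and 93.3% of tested genes. Positions of genes are those of the deposited table. For 13 of the 68 genes the table gives a region joined with other genes. Adjustment, word search and gene selection were tested on simulated data. Python 3.11.15, NumPy 2.4.6, pandas 2.3.3, SciPy 1.17.1 and Matplotlib 3.10.9 were used.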

Additional observations from a re-analysis of the deposited data

How the results depend on the processing

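The counts of 32 lower and 3 higher genes stayed within 1.5 times at q under 0.01 (30 and 3) and at q under 0.1 (36 and 3). Recomputed adjustment returned the deposited q to within 5.18e-07, so it could not move the counts. Leaving out genes below 2.02 FPKM removed no mitotic gene, since their lowest mean was 5.85 FPKM, and the counts stayed the same. Either centring kept the deposited calls and could change only their sign. Centred on all tested genes the split was 32 and 3. Centred on genes at or above the median level it was 31 and 4. With at least a 2-fold difference, 0 were lower and 0 higher. With equal totals the same calls split into 15 below and 20 above 0, and the median log2 fold change of -0.33 became 0.32. It became 0.035 after centring on genes at or above the median level, -0.27 after centring on all tested genes and -0.32 with a pseudocount of 1 FPKM. Without the 13 genes in joined regions, an alternative chosen after seeing the data, it was -0.34, with 27 lower and 3 higher. Also chosen after seeing the data, a two-sided normal p of the deposited statistic, adjusted over all tested genes, left 12 lower and 2 higher, against 14.0% and 10.9% of all tested genes. Cenpf was no longer called, while Casc5, Espl1 and Pttg1 were. Depth and the spread between libraries are unknown. No paired analysis was possible because the table holds no value per library, and for the same reason no library could be left out.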
